A study of Mus musculus with 10 samples.

Results

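The genes described here are 35 genes that carry cells through mitosis and cytokinesis, measured in whole uteri of mice at gestation day 3.5. They were taken by name and comprise mitotic cyclins and their kinase, mitotic kinases, the chromosomal passenger complex, spindle checkpoint genes, substrates and partners of the anaphase-promoting complex, kinetochore genes, kinesins, spindle assembly factors, *Top2a* and *Mki67*, and cytokinesis genes. All 35 were found among the 45706 genes of the count matrix. All 35 were also among the 25146 genes that entered the test because they averaged 1 count or more per sample, with mean counts from 1181 for *Ttk* to 17930 for *Top2a*.

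A cell that has copied its DNA enters mitosis when cyclin A and cyclin B activate CDK1. The spindle then captures each chromosome at its kinetochore, the spindle checkpoint holds the cell until every kinetochore is attached, and the anaphase-promoting complex releases the sister chromatids by marking securin and cyclin B for destruction. Most of the genes for this machinery are transcribed late in the cell cycle and are low in cells that do not divide, so that their RNA in a tissue is widely used as a sign of dividing cells. In the mouse uterus before implantation, progesterone ends division in the luminal epithelium, while cells of the stroma take up division.

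Uteri came from intact adult females at gestation day 3.5, counted from the mucus plug. The controls were 5 *Arid1a f/f* mice, and the other 5 were *Ltf iCre/+ Arid1a f/f*, called Cre mice or Cre uteri from here on. All 10 mice carried 2 floxed alleles of *Arid1a*, which encodes a subunit of the SWI/SNF chromatin remodelling complex. The Cre mice also carried 1 *Ltf* allele with an improved Cre recombinase, which is active in the endometrial epithelium of adult mice, so that by design the other cells of the uterus keep the floxed gene. The paper cautions that this Cre has also been reported in neutrophils and further myeloid cells, and that deletion in those cells remains possible. RNA was extracted from whole uterine tissue, and the deposited values are reads counted per gene, between 59296537 and 72702411 per uterus. Levels are in CPM (counts scaled to libraries of 1 common size after TMM normalization), and differences between genotypes as log2 fold changes of Cre over control, so that positive values are higher in the Cre uteri. In RNA of a whole tissue, a change in the number of dividing cells and a change in RNA per dividing cell cannot be told apart. The targeted gene stood at 213 ± 22.9 CPM (SD, n = 5) in controls and at 185 ± 15.9 CPM (SD, n = 5) in Cre uteri, and in this whole tissue RNA it did not pass the test (log2 fold change -0.20, standard error 0.09, edgeR adjusted p = 0.201).

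Of the 35 genes, 30 had a promoter in the RefSeq table of GRCm38.p6, a window of 300 bases from 250 before to 50 after the start of transcription. *Ccna2*, *Aurkb*, *Incenp*, *Kif20a* and *Tpx2* had none. Promoters of late cell cycle genes are known for the cell cycle genes homology region (CHR), which binds the MuvB complex, and for CCAAT boxes, which bind NF-Y. The letters TTTGAA or TTCGAA, the common forms of the CHR, were found on either strand in 23 of the 30 promoters (76.7%), against 21.7% of the 27025 genes with a promoter in the table. CCAAT was also found in 23 (76.7%), against 41.1% of all genes, and 20 genes (66.7%) held both, against 8.61%. TTGGCGC or TTCCCGC, forms that E2F factors bind and that are better known from genes of the G1 to S transition, were found in 4 promoters (13.3%), against 7.79%. Within the narrower window from 100 bases before to 50 after the start, the CHR letters stood in 73.3% of the 30 promoters and in 9.87% of all genes. *Birc5*, *Mad2l1*, *Pttg1* and *Nuf2* held none of these letters in the window. The RefSeq starts of *Cenpa*, *Mad2l1*, *Pttg1* and *Kif4* lay 109, 169, 270 and 328 bases from the GENCODE gene starts, and those of *Cdca8* and *Kif2c* 2394 and 3867 bases away, so that other letters would be read from other starts. These matches describe the sequence only.

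The promoters shown here belong to genes to which the results return, each from 5′ to 3′ on the gene's own strand and with the searched letters of either strand in capitals. *Cdk1* (chr10:69352863-69353162, minus strand) and *Mki67* (chr7:135716330-135716629, minus strand) held all 3 kinds of letters and had, respectively, one of the larger and the smallest of the 35 log2 fold changes. *Ect2*, the first of whose 2 RefSeq promoters is shown (chr3:27153829-27154128, minus strand), had the largest, and in its capital run across the start the E2F letters overlap a CCAAT. *Mad2l1* (chr6:66534971-66535270, plus strand) was the gene that passed the test, and *Nuf2* (chr1:169531415-169531714, minus strand) was one of the few whose order across uteri differed from the rest. Neither of these held a searched sequence.
Cdk1: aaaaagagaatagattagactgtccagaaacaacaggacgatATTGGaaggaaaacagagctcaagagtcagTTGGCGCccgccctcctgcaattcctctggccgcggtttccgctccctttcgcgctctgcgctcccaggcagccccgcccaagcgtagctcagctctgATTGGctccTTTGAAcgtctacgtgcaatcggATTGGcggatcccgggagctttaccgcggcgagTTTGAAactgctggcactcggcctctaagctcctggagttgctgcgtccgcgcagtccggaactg
Mki67: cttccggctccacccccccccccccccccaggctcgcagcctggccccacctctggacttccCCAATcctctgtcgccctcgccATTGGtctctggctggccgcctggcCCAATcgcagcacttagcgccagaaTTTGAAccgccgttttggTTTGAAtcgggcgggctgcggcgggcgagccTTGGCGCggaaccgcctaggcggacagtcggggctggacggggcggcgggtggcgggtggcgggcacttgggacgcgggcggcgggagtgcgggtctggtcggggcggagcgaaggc
Ect2: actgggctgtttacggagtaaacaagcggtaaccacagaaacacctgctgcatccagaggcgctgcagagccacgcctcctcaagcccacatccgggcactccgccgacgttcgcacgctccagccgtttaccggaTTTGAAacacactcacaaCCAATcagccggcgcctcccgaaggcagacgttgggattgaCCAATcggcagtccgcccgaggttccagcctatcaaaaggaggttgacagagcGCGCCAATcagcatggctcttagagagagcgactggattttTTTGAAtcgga
Mad2l1: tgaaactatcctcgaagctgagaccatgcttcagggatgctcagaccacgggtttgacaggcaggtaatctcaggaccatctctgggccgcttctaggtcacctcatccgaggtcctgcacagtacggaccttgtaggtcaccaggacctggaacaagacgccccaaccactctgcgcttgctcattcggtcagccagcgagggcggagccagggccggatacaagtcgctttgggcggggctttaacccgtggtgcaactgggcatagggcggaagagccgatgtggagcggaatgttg
Nuf2: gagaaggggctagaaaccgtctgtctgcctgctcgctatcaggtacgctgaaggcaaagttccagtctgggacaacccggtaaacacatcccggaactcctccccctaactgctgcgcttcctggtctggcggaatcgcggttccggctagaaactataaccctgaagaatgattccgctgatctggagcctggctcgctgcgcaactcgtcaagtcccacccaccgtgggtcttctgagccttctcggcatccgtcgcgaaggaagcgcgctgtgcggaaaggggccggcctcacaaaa

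The first comparison asked whether the mitotic genes differed between the genotypes. All 35 had a log2 fold change above 0, between 0.10 for *Mki67* and 1.00 for *Ect2*, with a median of 0.41. The sign rested on Cre replicates 1 and 2 for 6 of them: *Cenpf*, *Top2a* and *Mki67* had values below 0 without either, *Kif20a* without replicate 1, and *Nuf2* and *Prc1* without replicate 2. Over all tested genes the median log2 fold change was 0.03, and 52.7% were above 0. Only *Mad2l1* rose past the threshold, and no member fell, at an adjusted p of 0.05 (quasi-likelihood test in edgeR, Benjamini-Hochberg over all tested genes). One called gene of 35 is a share of 2.86%, where 9.7% of all tested genes were called, 5.19% higher and 4.51% lower. At an unadjusted p under 0.05, 11 members were higher (14.3% of all tested genes were) and 0 were lower (11.9%). No member had groups that did not overlap, whereas 5.53% of all tested genes lay higher in every Cre uterus than in the highest control, and 5.16% lower than in the lowest. The standard errors of the members ran from 0.13 for *Pttg1* to 0.32 for *Plk1* with a median of 0.26, and the 95% interval of most members included 0. With DESeq2 in place of edgeR 3 members were called higher, *Mad2l1*, *Cdk1* and *Ect2*.

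**Figure D1:**
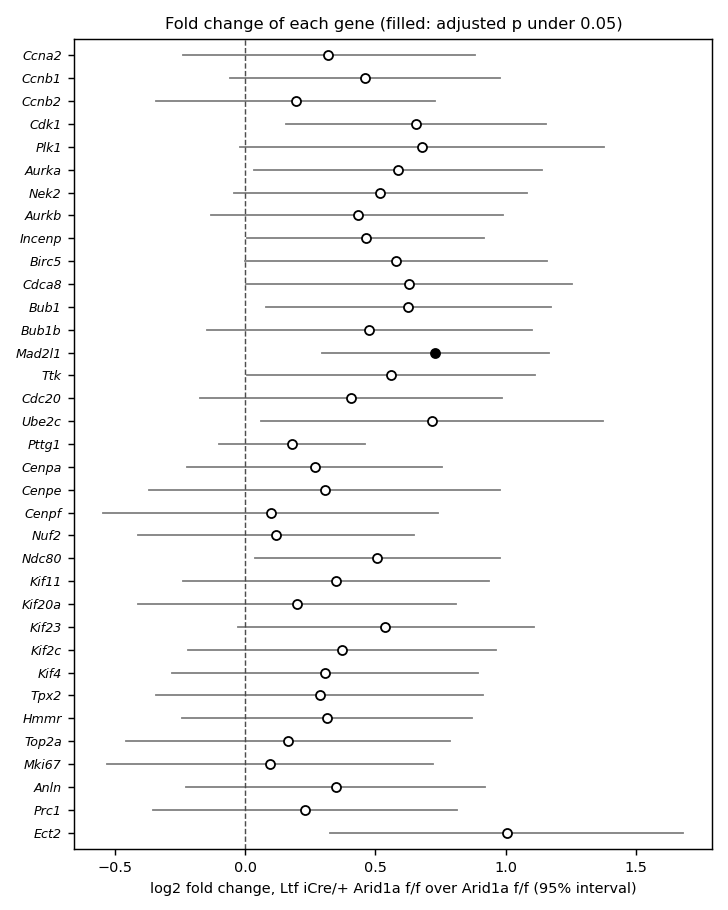
Log2 fold change of each of the 35 mitotic genes, Cre over control, with its 95% interval from edgeR's quasi-likelihood fit (5 uteri against 5), ordered by role. All points lie above 0, from 0.10 for *Mki67* to 1.00 for *Ect2*, and only *Mad2l1* passed the adjusted threshold of 0.05.

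The differences did not lie evenly across the 5 Cre uteri. Replicate 1 stood above every control for 34 of the 35 genes and replicate 2 also for 34, the exceptions being *Nuf2* in replicate 1 and *Pttg1* in replicate 2. Replicate 3 was within the control range for 19 genes, below every control for 15 and above every control for *Mad2l1* alone. Replicate 4 was within the control range for 21 genes, below for 14 and above for 0. Replicate 5 divided the genes, with 17 above every control, 17 within the control range and *Nuf2* below it. Of all tested genes, 30.5%, 24.2%, 24.5%, 27.3% and 29% lay above every control in replicates 1 to 5. Summed over the 35 genes, control uteri held 1725, 1608, 2104, 1796 and 1361 CPM in replicates 1 to 5, and Cre uteri 3214, 3140, 1314, 1356 and 1881 CPM. The sums of replicates 1 and 2 were thus above the highest control, those of replicates 3 and 4 just below the lowest, and that of replicate 5 among the controls.

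For 33 of the 35 genes (94.3%) both replicate 1 and replicate 2 lay above every control, against 15.9% of all tested genes and 22.2% of the 9945 with a mean of at least 1000 counts, the range in which all members fall. For 32 (91.4%) this was so while neither replicate 3 nor replicate 4 lay above every control, against 4.76% of all tested genes and 8.13% of the well counted ones. This order was noticed in the values and is given as a description, since no label separates these uteri. Controls were also ordered, though over a smaller range. Replicate 3 was the highest control for 30 genes and replicate 5 the lowest for 29, and the median gene stood 0.28 above and 0.32 below the control mean there on the log2 scale. On the same scale the median gene stood at 0.93 in replicate 1 and 0.92 in replicate 2 of the Cre uteri, but at -0.35, -0.27 and 0.22 in replicates 3, 4 and 5.

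The spread within the genotype was accordingly large. The SD of log2 CPM had a median over the 35 genes of 0.25 among controls and of 0.64 among Cre uteri, and it was larger in the latter for 34 of them (97.1%). The median ratio of the SDs was 2.57. Among all tested genes with a mean of at least 1000 counts 75.9% had the larger SD in Cre uteri, with a median ratio of 1.503. The median log2 fold change of the members was 0.19 without Cre replicate 1 and 0.20 without replicate 2, compared with 0.41 over all uteri, and 0 members were called without either.

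**Figure D2:**
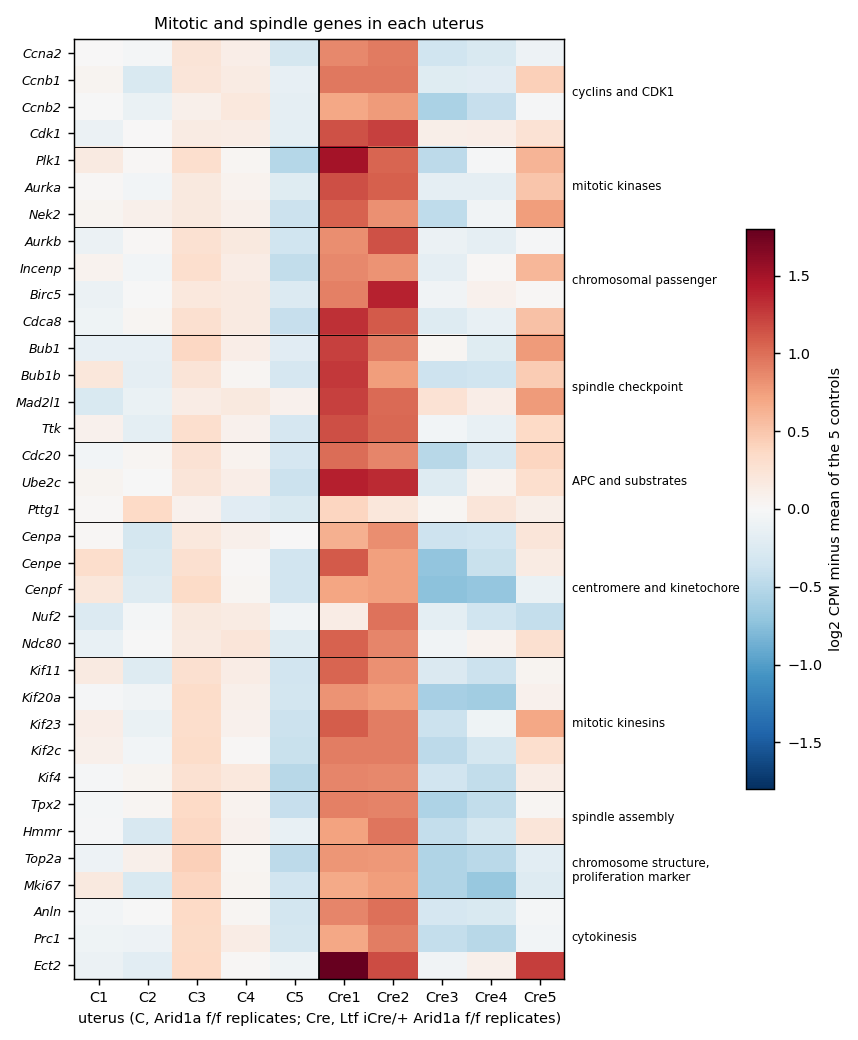
Log2 CPM of the 35 mitotic genes in each uterus minus the mean of the 5 controls, ordered by role, with control replicates 1 to 5 (C) on the left and Cre replicates 1 to 5 on the right. Replicates 1 and 2 of the Cre uteri are high for nearly every gene (median 0.93 and 0.92), replicates 3 and 4 are mostly below the control mean (median -0.35 and -0.27), and replicate 5 differs by gene.

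Among the genes that start mitosis, *Cdk1* (ENSMUSG00000019942, chromosome 10 from 69335146 to 69352938 in GRCm38) encodes the kinase itself. It was at 40.4, 43.9, 48.1, 47.9 and 38.5 CPM in control replicates 1 to 5 and at 96.5, 102, 47.0, 47.3 and 52.0 CPM in Cre replicates 1 to 5. Replicates 1 and 2 were thus at 2.20 and 2.33 times the control mean, and replicates 3 and 4 lay within the control range. The log2 fold change was 0.66 ± 0.23 (standard error; edgeR adjusted p = 0.0935, two-sided exact permutation p = 0.0476 over the 252 arrangements of 5 uteri against 5). Its cyclin partners had smaller point estimates, with intervals that overlapped its own. *Ccnb1*, cyclin B1, was at 26.1, 20.9, 29.2, 28.0 and 22.8 CPM in controls and at 48.7, 48.7, 21.6, 21.9 and 33.8 CPM in Cre uteri, with a log2 fold change of 0.46 (95% interval -0.06 to 0.98). Of these uteri 3 lay above and none below every control. *Ccna2* and *Ccnb2*, for cyclins A2 and B2, had 0.32 and 0.20, and both were above every control in replicates 1 and 2 only.

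The mitotic kinases had larger point estimates. *Plk1*, whose kinase acts on centrosomes, kinetochores and cytokinesis, was at 25.0, 22.7, 27.6, 22.9 and 15.7 CPM in controls and at 63.4, 46.5, 16.2, 22.03 and 34.0 CPM in Cre uteri. Its log2 fold change of 0.68 had the widest error of all members (95% interval -0.02 to 1.38, adjusted p = 0.205). *Aurka*, for the centrosomal Aurora kinase, had 0.59 and *Nek2*, for a kinase that separates centrosomes, 0.52. All 3 kinases lay above every control in replicates 1, 2 and 5, and within or below the control range in replicates 3 and 4.

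The chromosomal passenger complex corrects wrong attachments of chromosomes to the spindle and consists of Aurora B (*Aurkb*), INCENP (*Incenp*), survivin (*Birc5*) and borealin (*Cdca8*). Their log2 fold changes lay close together, at 0.43, 0.46, 0.58 and 0.63, and none passed the test (adjusted p from 0.184 to 0.321). In replicate 5 the subunits parted, with *Incenp* and *Cdca8* at 1.49 and 1.42 times the control mean and above every control, and *Aurkb* and *Birc5* at 0.978 and 1.01 times and within the control range.

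The spindle checkpoint delays anaphase until chromosomes are attached, and it held the called member. *Mad2l1* (ENSMUSG00000029910, chromosome 6 from 66535390 to 66547220), which encodes the checkpoint protein MAD2, was at 31.8, 35.5, 42.5, 43.6 and 40.7 CPM in controls and at 90.6, 77.9, 46.3, 41.8 and 65.5 CPM in Cre uteri. Replicates 1, 2, 3 and 5 lay above every control, while replicate 4 lay among them, so the groups overlapped by 1 uterus. It rose from 38.8 ± 5.01 to 64.4 ± 20.7 CPM (SD over 5 uteri each), and its log2 fold change was 0.73 ± 0.20 (standard error; 95% interval 0.29 to 1.17; edgeR adjusted p = 0.0412). The two-sided exact permutation p was 0.0238, where the smallest that the design allows is 0.00794. The call was close to the threshold: it held without Cre replicate 3 or 4 (adjusted p = 0.0267 and 0.0214) and was lost when any one of the other 8 uteri was left out (adjusted p from 0.0588 to 0.0958).

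The other checkpoint genes had similar values with wider errors. *Bub1*, a kinase of the checkpoint, was at 23.9, 23.8, 34.3, 28.8 and 23.0 CPM in controls and at 61.9, 50.0, 27.1, 22.6 and 45.1 CPM in Cre uteri, with a log2 fold change of 0.63 (adjusted p = 0.138). *Bub1b*, for BUBR1, had 0.48 and *Ttk*, for the kinase MPS1, 0.56. All 4 checkpoint genes lay above every control in replicate 5 as well as in replicates 1 and 2.

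Downstream of the checkpoint, *Cdc20* activates the anaphase-promoting complex, *Ube2c* supplies its ubiquitin and *Pttg1* encodes securin, which it destroys. *Ube2c* was at 35.8, 34.1, 40.0, 37.4 and 26.4 CPM in controls and at 90.6, 87.4, 29.3, 36.1 and 42.4 CPM in Cre uteri, with a log2 fold change of 0.72 (95% interval 0.06 to 1.37, adjusted p = 0.153). *Cdc20* had 0.41. *Pttg1* was the steadiest member, at 20.7, 26.2, 21.5, 17.6 and 16.9 CPM in controls and at 26.7, 23.5, 20.9, 23.6 and 21.9 CPM in Cre uteri. Its log2 fold change was 0.18 (95% interval -0.10 to 0.46), replicate 1 exceeded the highest control by little, and replicate 2 did not exceed it. It was also the only member with a smaller SD of log2 CPM in Cre uteri than in controls.

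At the centromere and kinetochore, where chromosomes bind the spindle, *Ndc80* had a log2 fold change of 0.51, *Cenpe* 0.31, *Cenpa*, for the centromeric histone, 0.27, *Nuf2* 0.12 and *Cenpf* 0.10. NUF2 and NDC80 are partners in 1 complex, but their values were ordered differently. *Nuf2* was at 25.6, 29.6, 34.3, 33.6 and 29.1 CPM in controls and at 33.2, 59.4, 26.9, 23.5 and 22.4 CPM in Cre uteri, so that only replicate 2 lay above the controls and replicates 4 and 5 lay below them. *Ndc80* was at 15.2, 16.6, 18.6, 19.3 and 14.1 CPM in controls and at 34.8, 30.7, 15.9, 17.4 and 20.2 CPM in Cre uteri. In replicate 1, *Ndc80* was thus at 2.08 times its control mean and *Nuf2* at 1.09 times. Whether the fold changes of the pair differ was not tested.

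**Figure D3:**
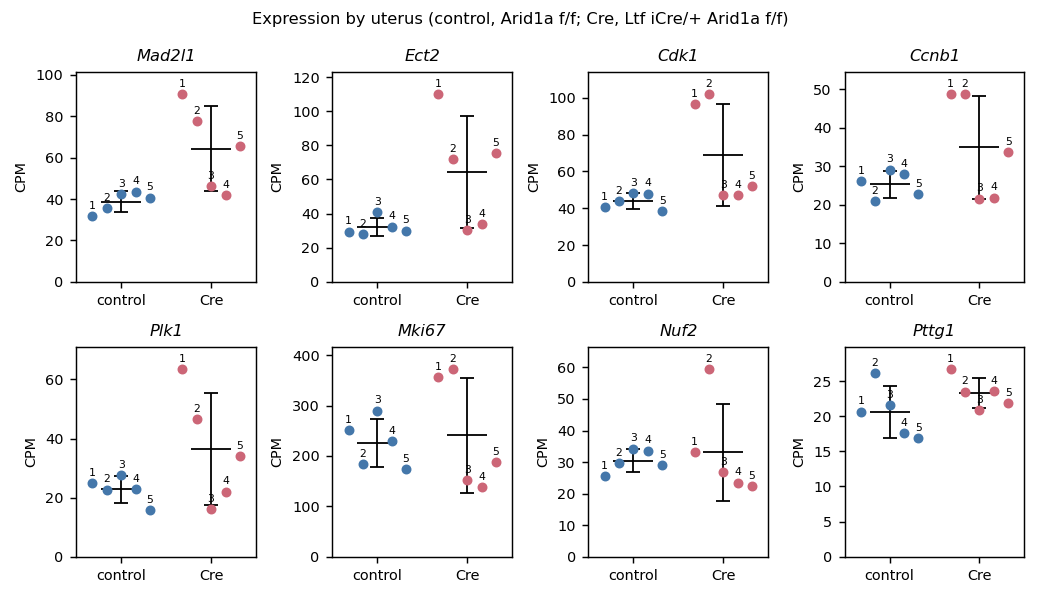
CPM of selected mitotic genes in each of the 5 control and 5 Cre uteri, 1 point per uterus marked with its replicate number, with the mean and SD of each group as bars and each axis starting at 0. Replicates 1 and 2 are the highest for most genes shown, *Nuf2* is high in replicate 2 only (59.4 CPM), and the groups overlap for every gene.

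The mitotic kinesins are motors that build the spindle or move along it. *Kif23*, a motor of the central spindle, had the largest log2 fold change of the 5 (0.54, adjusted p = 0.216) and the only values above every control in replicate 5 (1.6 times the control mean). *Kif2c*, *Kif11*, *Kif4* and *Kif20a* had 0.37, 0.35, 0.31 and 0.20. The spindle assembly factors *Tpx2*, which activates Aurora A, and *Hmmr*, a spindle protein that also binds hyaluronan, had 0.29 and 0.32. All 7 of these genes lay above every control in replicates 1 and 2, and none did in replicates 3 and 4.

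*Top2a*, which untangles sister chromatids, and *Mki67*, which encodes the proliferation antigen Ki-67 that coats mitotic chromosomes, were the most abundant members. *Mki67* was at 251, 184, 290.0, 230 and 174 CPM in controls and at 357, 372, 152, 138 and 188 CPM in Cre uteri. Replicates 1 and 2 thus exceeded every control and replicates 3 and 4 were below every control, and the log2 fold change was 0.10 (95% interval -0.53 to 0.72, adjusted p = 0.874). *Top2a* was at 236, 267, 337, 257 and 181 CPM in controls and at 435, 429, 172, 179 and 219 CPM in Cre uteri, with a log2 fold change of 0.17 (95% interval -0.46 to 0.79). The group means of these genes therefore hid values from 0.612 to 1.65 times the control mean for *Mki67* and from 0.672 to 1.70 times for *Top2a*.

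Cytokinesis genes act when the cell divides its cytoplasm. *Ect2* (ENSMUSG00000027699, chromosome 3 from 27097222 to 27153878), which encodes the exchange factor that activates RhoA at the cleavage furrow, had the largest log2 fold change. It was at 29.4, 27.8, 40.8, 32.3 and 30.0 CPM in controls and at 110, 72.0, 30.4, 33.8 and 75.4 CPM in Cre uteri, with replicates 1, 2 and 5 above and replicates 3 and 4 within the control range. The mean was 2.01 times that of controls (log2 fold change 1.00 ± 0.31, 95% interval 0.33 to 1.68) and missed the threshold (adjusted p = 0.0641; exact permutation p = 0.0635). It passed when either Cre replicate 3 or 4 was left out (adjusted p = 0.0228 and 0.0367). *Anln*, for the scaffold anillin, and *Prc1*, which bundles microtubules of the central spindle, had 0.35 and 0.23 and lay within the control range in replicate 5.

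Compared per length of exon, the members differed widely in control uteri. *Top2a* was highest at 28.4 CPM per kb, followed by *Mki67* at 22.4, *Ccna2* at 21.7, *Ccnb2* at 21.4 and *Cdc20* at 18.2, and the lowest were *Ttk* at 2.94 and *Ndc80* at 2.58 CPM per kb. The order depended in part on the length used: per kb of the longest transcript *Top2a* was at 48.9, *Ccna2* at 29.9, *Mki67* at 22.4, *Ccnb2* at 21.4, *Prc1* at 20.7 (9.17 by all exons) and *Cdc20* at 19.0, and *Kif4* at 4.596 lay below *Ttk* at 5.04 and above *Ndc80* at 4.35. Of the members, 10 share exon bases with another annotated gene, in 9 cases on the opposite strand, and no source used here states whether counting used strand. The share was largest for *Kif20a* (29.3% of its exon bases, with *Cdc23*), *Ube2c* (22.8%, with *Tnnc2*) and *Kif4* (15.1%, with *Pdzd11*). The counts of these genes may be affected by the overlap, and in which direction was not tested. Pseudogenes are named after *Ccnb1*, *Ccnb2* and *Kif4*, and reads that match both a pseudogene and its parent gene could affect the count of the parent.

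The other genes of the mitotic machinery were read from 7 lists with 123 genes, all of which were tested. Of these, 107 had a log2 fold change above 0, 13 were called higher (10.6%, against 5.19% of all tested genes), 2 were called lower, and the median was 0.35. They shared the order of the members in part. Cre replicates 1 and 2 lay above every control for 101 and 103 of the 123 genes, and replicates 3, 4 and 5 for 35, 30 and 62. As shares these are 82.1%, 83.7%, 28.5%, 24.4% and 50.4%, and those of replicates 3 and 4 were near the 24.5% and 27.3% of all tested genes. The calls depended on single uteri: 0 were called higher without control replicate 2, 1 to 3 without any one of the other controls, 4 and 3 without Cre replicates 1 and 2, and 14 to 18 without Cre replicate 3, 4 or 5. The rises named in the next paragraphs are those of the fit over all 10 uteri.

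Among 15 genes for the control of CDK1 and for further cell cycle kinases, 3 rose. *Pbk*, for a mitotic kinase, rose by 0.88 on the log2 scale, *Cks2*, for a small subunit of the kinase, by 0.83, and *Cdc25a*, for a phosphatase that activates CDKs, by 0.45 (adjusted p = 0.0398, 0.0455 and 0.0242). *Cks2* and *Cdc25a* were higher in all 5 Cre uteri than in every control. The inhibitory kinases *Pkmyt1* and *Wee1* had 0.54 and 0.25 and did not pass (adjusted p = 0.0912 and 0.381).

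Of 11 genes for the transcription complexes that activate or repress late cell cycle genes, 3 rose. *Rbl1*, for the pocket protein p107, rose by 0.46, *Lin9*, for a MuvB subunit, by 0.43 and *Tfdp1*, for a partner of E2F factors, by 0.43 on the log2 scale (adjusted p = 0.0219, 0.0400 and 0.0358). *Foxm1*, for the activator FOXM1, was at 30.4, 28.3, 38.9, 31.4 and 24.8 CPM in controls and at 51.7, 54.5, 28.3, 25.8 and 31.9 CPM in Cre uteri, with replicates 1 and 2 above every control, the rest within their range, and a log2 fold change of 0.32 (adjusted p = 0.394). *Mybl2*, for B-MYB, had 0.57 (adjusted p = 0.0898) and *Lin54*, for the MuvB subunit that binds the CHR, 0.31 (adjusted p = 0.214).

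In the remaining lists, 4 of 36 other centromere, kinetochore and checkpoint genes rose, *Cenph* by 0.78, *Cenpw* by 0.67, *Mis18a* by 0.67 and *Zw10* by 0.36 on the log2 scale, each with no overlap between the groups. Of 11 genes for condensin and sister separation, *Cdca5*, for sororin, rose by 0.84 and *Haspin*, for a histone H3 kinase, by 0.74. None of 18 genes for the anaphase-promoting complex and its regulators and none of 8 other cytokinesis genes passed. *Fbxo5*, for the inhibitor EMI1, had 0.47 (adjusted p = 0.123). Among 24 other spindle genes, *Haus8*, for a subunit of the augmin complex that seeds microtubules within the spindle, fell from 75.1 ± 19.9 to 26.2 ± 9.16 CPM (SD, n = 5 each; log2 fold change -1.52, adjusted p = 0.00606), and *Numa1*, for a protein of the spindle poles that also lies in the interphase nucleus, fell from 223 ± 12.8 to 185 ± 12.9 CPM (log2 fold change -0.28, adjusted p = 0.0452). Neither overlapped between the genotypes. *Haus5*, named after its values were seen since it had a mean of only 96 counts, rose by 1.05.

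A list of 35 genes for DNA replication and S phase, the step before mitosis, had larger and more even differences. All 35 had a log2 fold change above 0 with a median of 0.61, 16 were called higher (45.7%, against 5.19% of all tested genes), and 14 did not overlap between the genotypes (against 5.53%). The number called was 6 without control replicate 2, 8 to 10 without any one of the other controls, 9 without Cre replicate 1, and 11 to 17 without any one of the other Cre uteri. The largest called were *Ung*, for a DNA repair enzyme, at 1.14, *Cdc6*, which loads the replicative helicase, at 1.07, *Gmnn*, for the licensing inhibitor geminin, at 0.98 and *Mcm10* at 0.95. *Gmnn*, whose protein is itself degraded in mitosis, was at 9.23, 11.1, 11.1, 10.9 and 11.6 CPM in controls and at 26.8, 20.8, 17.9, 18.3 and 22.5 CPM in Cre uteri, every one above every control.

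The S phase and mitotic lists parted most in Cre replicates 3 and 4. In replicate 3, 28 of 35 S phase genes lay above every control and 1 of 35 mitotic genes did, and in replicate 4 the counts were 19 and 0. The median S phase gene stood 0.48 and 0.32 above the control mean on the log2 scale in these uteri, where the median mitotic gene stood at -0.35 and -0.27. In replicates 1 and 2 both lists were high, with medians of 0.98 and 0.70 for S phase and 0.93 and 0.92 for mitotic genes. The order of high replicates 1 and 2 with neither 3 nor 4 above every control was found for 5 S phase genes (14.3%). It was found for 59 of the 123 other mitotic genes (48%). The difference between the lists was not tested. Of 15 G1 cyclins and CDK inhibitors, *Ccne1*, for cyclin E1, rose by 0.90 and *Cdk4* by 0.31 on the log2 scale without overlap. *Cdkn2b*, for a CDK inhibitor and named after its values were seen, was also called higher, at a mean of only 96.8 counts. *Cdkn1a*, for the inhibitor p21, was at 29.7, 21.1, 11.6, 10.5 and 21.3 CPM in Cre uteri and at 8.14 to 12.0 CPM in controls, so that it too was high in replicates 1, 2 and 5 (log2 fold change 0.89, adjusted p = 0.0539).

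**Figure D4:**
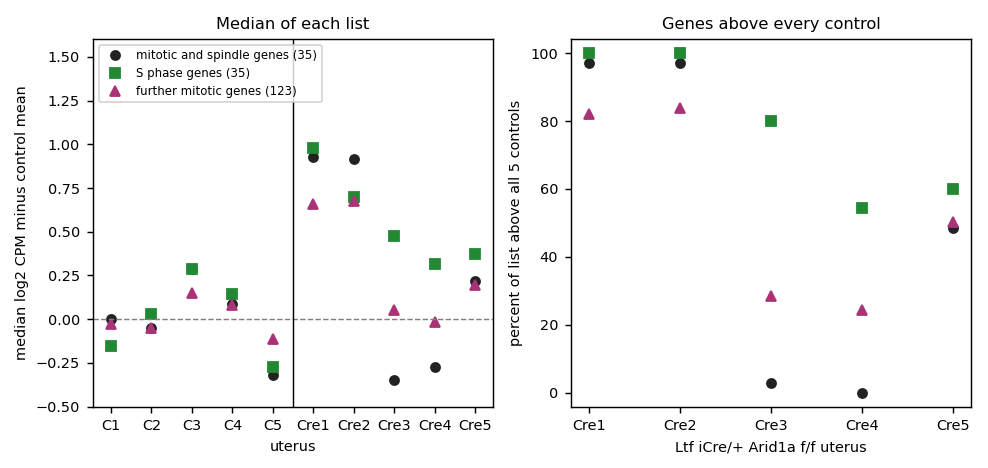
Median over the genes of each list of log2 CPM minus the control mean, in each of the 10 uteri (left), and percent of each list above all 5 controls in each Cre uterus (right), for the 35 mitotic genes, the 35 S phase genes and the 123 other (further) mitotic genes. In Cre replicates 3 and 4 the mitotic genes lie below the control mean (-0.35 and -0.27) and the S phase genes above it (0.48 and 0.32).

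Markers of the cell types of the uterus also differed between the genotypes and among the uteri. Of 7 epithelial markers 5 were called higher (*Epcam*, *Cdh1*, *Krt8*, *Krt19* and *Cldn7*), and 1 had a log2 fold change below 0 (-0.30). The summed level of all 7 was 762 to 1026 CPM in controls and 2030, 1254, 1094, 1343 and 1470 CPM in Cre replicates 1 to 5. It was highest in replicate 1, as for most mitotic genes, but was higher in replicate 4, where the mitotic genes were low, than in replicate 2. The single epithelial markers did not move together: on the log2 scale they lay from -1.01 to 1.90 from the control mean in replicate 1 and from -1.42 to 1.87 in replicate 5. Of 4 gland markers all were lower and *Foxa2* was called (63.0 to 110 CPM summed in controls, 7.23 to 47.0 in Cre uteri). All 5 endothelial markers were called lower (669 to 936 CPM summed in controls and 305 to 464 in Cre uteri). Of 6 stromal markers *Dcn* was called lower, and the sums were 14930, 13900, 11020, 9351 and 10940 CPM in Cre replicates 1 to 5, within or below the 10750 to 15990 CPM of controls. No myometrial marker of 6 was called, and the sums were 7231, 8671, 4371, 4689 and 3159 CPM against 6161 to 10950 CPM in controls. The single stromal markers did not share 1 order: in replicate 1 they lay from -1.70 to 1.06 from the control mean on the log2 scale with a median of -0.35, below the median of -0.18 in replicate 3. The median myometrial marker stood at -0.15, 0.16, -0.77, -0.71 and -1.28 in replicates 1 to 5, highest in replicates 1 and 2 among the Cre uteri.

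Of leukocyte markers, no macrophage (6), natural killer cell (5) or B cell (4) marker was called, nor was *Ptprc*. Of the macrophage markers 5 had a log2 fold change above 0 and 1 below (median 0.53), and *Ptprc* had 0.56. All 5 natural killer cell markers were below 0 (median -0.235) and all 4 B cell markers above it (median 0.29). Called higher were 2 of 5 T cell markers (*Cd3e* and *Cd3d*) and 1 of 5 neutrophil markers (*Ly6g*). The neutrophil sum was 817 CPM in Cre replicate 5 and between 5.12 and 12.5 CPM in the other 9 uteri, and the macrophage sum there was 568 CPM against 136 to 319 CPM in the others. Without this uterus the median log2 fold change of the mitotic genes was 0.43, and 0 were called. Markers of embryo or germ cells were near 0, with sums of 0.06 to 0.59 CPM over 4 of 5 genes, and *Cdx2* had too few counts to be tested. The part of cell type makeup in the values of the mitotic genes was not tested.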

How the data were processed

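RNA of 10 uteri was made into mRNA libraries and read in pairs. Per the labels, reads were processed with cutadapt 1.18, Trim Galore 0.6.4, FastQC 0.11.9 and STAR 2.7.3a on GRCm38. The authors deposited whole-number counts per gene for all 10 libraries in 1 table, without normalization. The annotation release and the strand setting are not given in the sources used here. Every row named a gene, and no libraries were duplicates (chi-square of at least 33.3 per gene for pairs of 1 genotype).

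Symbols and coordinates came from GENCODE vM21 (GRCm38). Genes averaging 1 count or more per sample were tested with edgeR 4.0.16 in R 4.3.3 (TMM library sizes, quasi-likelihood test with genotype as factor, Benjamini-Hochberg adjusted p under 0.05), and DESeq2 1.42.0 was an alternative. Intervals at 95% use the error of the quasi-likelihood fit. Log2 CPM used a prior count of 2. An exact permutation test (two-sided, on log2 CPM) was added for each member. Nothing in the sources says that the numbers pair mice, and p-values set the difference between the genotypes against the spread between these uteri. Levels per length were divided by the union of exon bases. Promoters came from RefSeq (GRCm38.p6) and were searched on both strands. The procedure was tested on simulated counts drawn for each gene independently, which do not hold the shared order seen across the Cre uteri. Drawings were made with matplotlib 3.10.9.

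The members, the other lists and the markers were chosen with earlier results of these data known. Named genes were all members, 7 regulators (*Foxm1*, *Mybl2*, *Lin54*, *Wee1*, *Pkmyt1*, *Fbxo5*, *Cdkn1a*) and, per list, up to 4 called genes of largest fold change with a mean of at least 100 counts. Alternatives covered normalization, test, filter on low counts, replicate number as a block, and the omission of each uterus.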

Additional observations from a re-analysis of the deposited data

Results flagged for a closer look

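Among the 35 mitotic genes in the 2 genotypes, 70 groups of 5 values were examined for a single value far from the rest, and chance marks about 1 group in 20. One was marked. *Nek2*, for a kinase that separates centrosomes, was at 13.7 CPM in control replicate 5, below the 18.6 to 20.3 CPM of the other controls, a gap of 0.733 of the range of the group (critical value 0.71). The same uterus was the lowest control for 29 of the 35 genes.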

How the results depend on the processing

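The direction and the side of the threshold of the members held in 205 of 210 values under other normalizations, filters, DESeq2 or the replicate block, and in 331 of 350 with 1 uterus left out. Only 1 of the 35 members was called over all uteri, so these counts are mostly of members that stayed uncalled. The called member, *Mad2l1*, kept its call in 2 of the 10 fits with 1 uterus left out and lost it with the replicate block. Over all genes edgeR called 2438 and DESeq2 4103. Members called higher numbered 3 with DESeq2 and 0 with the replicate block, against 1, other mitotic genes called higher 23 and 0, against 13, and S phase genes called higher 9 with the block, against 16. Other mitotic genes called lower numbered 1 without the filter on low counts and 1 with the block, against 2. The deviations of same-numbered uteri correlated at -0.10 to 0.17, so the numbers were not taken as pairs. With the replicate block *Cenpf* and *Mki67* had log2 fold changes of -0.018 and -0.006 in place of 0.10 and 0.10.

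With each uterus left out in turn, 1204 (without control replicate 2) to 2381 of all genes were called, 1248 without control replicate 3 and 1414 without control replicate 4. Members called higher ranged from 0 to 2 and lower from 0 to 0, other mitotic genes from 0 to 18 higher and 1 to 2 lower, and S phase genes from 6 to 17 higher. The median of the members ranged from 0.19 to 0.54. Signs turned for 6 members without Cre replicate 1 or 2, with ranges of -0.114 to 0.251 (*Cenpf*), -0.204 to 0.232 (*Nuf2*), -0.008 to 0.351 (*Kif20a*), -0.042 to 0.303 (*Top2a*), -0.12 to 0.243 (*Mki67*) and -0.009 to 0.369 (*Prc1*). The cause was not tested. Lengths from the longest transcript in place of all exons raised the level per kb of control uteri for several members, among them *Kif23* (12.1 against 5.22) and *Prc1* (20.7 against 9.17). Every member averaged over 1000 counts.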
